A study of Bos taurus and Sus scrofa with 10 samples.

Results

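The genes examined were 10 genes of the piRNA pathway, namely PIWIL1, PIWIL2, PIWIL3, PIWIL4, DDX4, TDRD1, TDRD9, MAEL, ASZ1 and MOV10L1. They were chosen by name, as the rows of the expression tables of cow and pig whose symbol equals one of these names. The rule uses no measured value, though the list was drawn up with earlier results of these data known. All 10 had 1 row each among the 22845 rows of the cow table. Among the 21867 rows of the pig table there were 9 matches, and pig TDRD9 was not analysed here. The study sequenced RNA of cow (Bos taurus) and of pig (Sus scrofa) at 5 stages: oocyte, 2-4 cell, 8-16 cell, morula and blastocyst. Each of these 10 groups had 1 library, so no difference below has a replicate check and no p-value is given. The labels give species and stage and nothing further: breed, age, the source of the oocytes, whether embryos were made in vitro, and how many were pooled are not given in the sources used here.

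PIWI-interacting RNAs (piRNAs) are small RNAs of the germ line that guide PIWI proteins to transcripts of transposable elements. Their precursors are handed to the outer membrane of mitochondria and to the nuage, a granule beside the nucleus, where helicases and Tudor-domain proteins assemble PIWI proteins with their guides and where cleaved transposon transcripts become new piRNAs. In mice the pathway is required in the male germ line, while the oocytes of many other mammals, cattle and pigs among them, also hold PIWIL3, which mice lack.

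Levels are reads per 1000000 reads of the library (RPM), with 95% Wilson intervals that cover counting error only. RPM values are not divided by gene length, so a level is compared between stages of a gene and not between genes. The tables of the 2 species were scaled separately, so changes were computed within a species. A change is the difference of log2(RPM + 1) between 2 stages, which understates changes of low values. A gene was compared where it had at least 1 RPM in either library, and was called higher or lower at a difference of 2 or more, 4-fold on that scale. In bulk embryos, fewer cells with a transcript and less transcript per cell cannot be told apart.

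From oocyte to blastocyst most of these genes were lower at the end. In cow, PIWIL1, PIWIL3, DDX4, MAEL and MOV10L1 fell and PIWIL2 rose. In pig, PIWIL1, PIWIL3, DDX4, TDRD1 and MAEL fell and none rose. Of the 10 cow genes 9 were compared, 5 of them called lower and 1 higher, where 18.4% of all 12738 compared genes were lower and 21.8% higher (40.2% in either direction). Of the 9 pig genes 7 were compared, 5 of them called lower and 0 higher, where 19.2% of 12512 compared genes were lower and 26.0% higher (45.2% in either direction). The median change of the compared genes of the pathway was -2.41 in cow and -3.96 in pig, beside 0.18 and 0.43 over all compared genes. PIWIL4 in both species and MOV10L1 in pig stayed under 1 RPM in the oocyte and blastocyst libraries and were not compared.

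**Figure D1:**
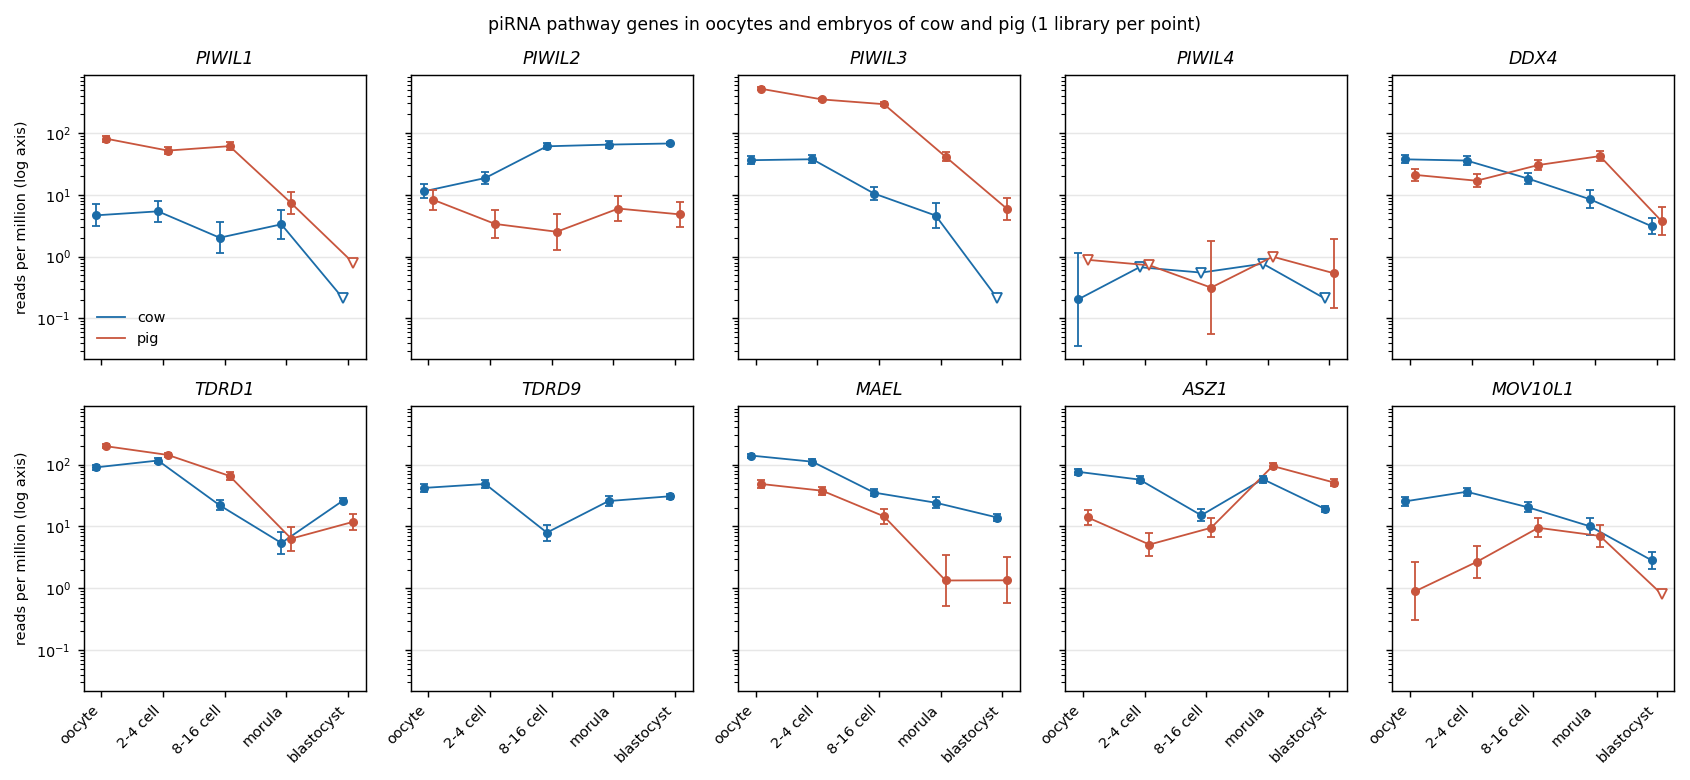
Level of each of the 10 genes in every library. The horizontal axis gives the stage and the vertical axis RPM on a log scale, with cow in blue and pig in red. Points are single libraries with 95% Wilson intervals, and open triangles mark libraries with 0 reads, drawn at the 3 reads that 0 reads allow. PIWIL1 ends at 0 reads in both species, PIWIL3 at 0 reads in cow and 5.90 RPM in pig, cow PIWIL2 rises to 67.7 RPM, and pig ASZ1 peaks at 94.6 RPM in the morula.

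PIWI proteins bind the piRNA and carry it to its target. PIWIL3, the PIWI gene best known from mammalian oocytes, fell in both species. It lies on pig chromosome 14, 42836905 to 42863739 on the minus strand, and on cow chromosome 17, 67222565 to 67247048 on the minus strand. Positions are those of the authors' tables. The builds named for the series are UMD3.1, a cow assembly, and Sscrofa11.1, a pig assembly.

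In pig, PIWIL3 stood at 520.2 RPM in the oocyte (496 to 545), 349 at the 2-4 cell stage, 292 at the 8-16 cell stage, 41.3 in the morula and 5.90 in the blastocyst (3.90 to 8.93). Each level was below the one before it, with no overlap of the intervals of neighbours in that order. The pig blastocyst level was 88.2-fold below the oocyte level (95% exact interval 58.06 to 141), a change of -6.24. In cow, PIWIL3 stood at 36.3 RPM in the oocyte (31.4 to 42.0), 37.6 at the 2-4 cell stage, 10.5 at the 8-16 cell stage, 4.62 in the morula and 0 reads in the blastocyst. The cow oocyte and 2-4 cell levels had overlapping intervals, and each later level lay below the one before it. A count of 0 among 14182046 reads allows 0.212 RPM. The cow fall was at least 138-fold (lower limit of the 95% exact interval), a change of -5.13.

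The pig PIWIL3 value needs a limit beside it, since its span lies inside that of SGSM1, a gene on the other strand of chromosome 14 (42790603 to 42974741). The SGSM1 row held 1897 reads in the oocyte library, 1528 at the 2-4 cell stage, 1019 at the 8-16 cell stage, 139 in the morula and 26 in the blastocyst. The PIWIL3 row held 1757, 1443, 926, 124 and 22 reads in the same libraries, between 84.6% and 94.4% of the SGSM1 reads. Both rows thus ran nearly in parallel. Across the tables, an enclosing gene had at least as many reads as the gene inside it in all 5 libraries in 178 of 178 pairs in cow and 520 of 523 pairs in pig (inner genes with at least 10 reads in 1 library). Reads of an inner gene therefore appear in the row of the outer gene too, and the strand that a read came from is not recorded. Between 4 and 140 SGSM1 reads per library lay beyond the count of PIWIL3. How many reads inside the PIWIL3 span belong to SGSM1 was not tested. In cow no other row overlaps the span of PIWIL3.

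**Figure D2:**
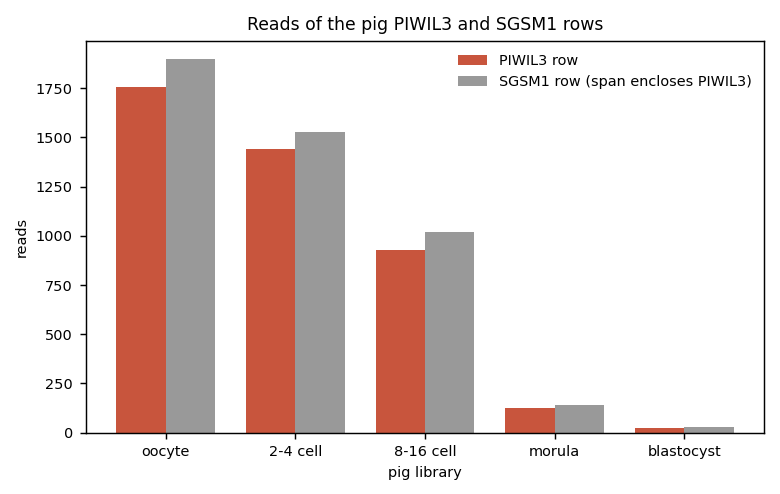
Reads of the PIWIL3 row (red) and of the SGSM1 row (grey) in the 5 pig libraries, as bars from 0. Both rows fall together, from 1757 and 1897 reads in the oocyte to 22 and 26 reads in the blastocyst.

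PIWIL1, the counterpart of mouse MIWI, had 0 reads in the blastocyst of both species. In pig (chromosome 14, 24730114 to 24756813) it stood at 80.8 RPM in the oocyte (71.8 to 91.0), 51.9 at the 2-4 cell stage, 61.3 at the 8-16 cell stage, 7.33 in the morula and 0 reads in the blastocyst. The 3 early pig libraries were high and the morula was well below them. The fall to the blastocyst was at least 100.5-fold, a change of -6.04. In cow (chromosome 17, 47726941 to 47761637) it stood at 4.67 RPM in the oocyte, 5.41 at the 2-4 cell stage, 2.02 at the 8-16 cell stage, 3.33 in the morula and 0 reads in the blastocyst. The cow intervals of neighbouring levels overlapped, apart from the step down to the blastocyst. From oocyte to blastocyst the cow fall was at least 16.5-fold by the same limit, a change of -2.41 that rests on 23 oocyte reads. With a pseudocount of 2 RPM it was -1.69 and not called. A minimum of 5 RPM left cow PIWIL1 out of this comparison.

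PIWIL2, the counterpart of mouse MILI, was the 1 member of the 10 called higher in the blastocyst than in the oocyte, in cow. In cow (chromosome 8, 70094806 to 70175916) it stood at 11.4 RPM in the oocyte (8.75 to 14.7), 18.7 at the 2-4 cell stage, 60.9 at the 8-16 cell stage, 64.9 in the morula and 67.7 in the blastocyst (63.5 to 72.1). The last 3 cow levels had overlapping intervals and lay above the first 2, which were apart. Cow PIWIL2 was 5.96-fold higher in the blastocyst than in the oocyte (95% exact interval 4.55 to 7.95), a change of 2.47. Most of that difference had appeared by the 8-16 cell stage. In pig (chromosome 14, 6563668 to 6630203) it stood at 8.29, 3.38, 2.53, 5.99 and 4.83 RPM from oocyte to blastocyst. These pig levels rest on 8 to 28 reads each, and the intervals of all neighbours in their order overlapped.

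PIWIL4, the counterpart of the nuclear mouse protein MIWI2, was at or near 0 in all 10 libraries. In cow it had 1 read in the oocyte library and 0 reads in the other 4. In pig it had 1 read at the 8-16 cell stage, 2 reads in the blastocyst and 0 reads in the other 3. A count of 0 allows up to 0.212 RPM in the cow blastocyst and up to 0.999 RPM in the pig morula, so PIWIL4 was not detectable beyond 2 reads at these depths.

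DDX4, the vertebrate Vasa helicase and a classic germ cell marker of the nuage, had its peak at different stages. In cow (chromosome 20, 23379443 to 23444459) it stood at 37.5 RPM in the oocyte, 35.8 at the 2-4 cell stage, 18.2 at the 8-16 cell stage, 8.46 in the morula and 3.103 in the blastocyst. The first 2 cow levels overlapped and each later one was lower, to 12.1-fold below the oocyte (95% exact interval 8.67 to 17.2), a change of -3.23. In pig (chromosome 16, 34880568 to 34983694) it stood at 21.02 RPM in the oocyte, 16.9 at the 2-4 cell stage, 30.3 at the 8-16 cell stage, 42.3 in the morula and 3.75 in the blastocyst. The pig morula level lay above the oocyte level without overlap (35.6 to 50.3 against 16.7 to 26.5 RPM), at 201% of it, a gap below the threshold. The pig fall thus came in 1 step, from morula to blastocyst, by 11.3-fold (95% exact interval 6.47 to 21.2).

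TDRD1, a Tudor protein that binds methylated PIWI proteins, had its low point in the morula in both species. In cow (chromosome 26, 34947479 to 34985364) it stood at 90.1 RPM in the oocyte, 116 at the 2-4 cell stage, 21.9 at the 8-16 cell stage, 5.39 in the morula and 26.1 in the blastocyst. The cow blastocyst was 4.84-fold above the morula (95% exact interval 3.12 to 7.92), a change of 2.08 that a pseudocount of 2 RPM brought under the threshold. In pig (chromosome 14, 124534577 to 124572256) it stood at 197 RPM in the oocyte, 143 at the 2-4 cell stage, 65.4 at the 8-16 cell stage, 6.33 in the morula and 11.8 in the blastocyst. The pig morula and blastocyst intervals overlapped. Against the oocyte, pig TDRD1 was 16.7-fold lower in the blastocyst (12.3 to 23.3), a change of -3.96. In cow it was 3.45-fold lower (3.0004 to 3.97), a change of -1.75 that was not called.

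TDRD9, a helicase with a Tudor domain that acts with PIWIL4 in mouse germ cells, was measured in cow only (chromosome 21, 70123917 to 70233306). It stood at 41.8 RPM in the oocyte, 48.4 at the 2-4 cell stage, 7.92 at the 8-16 cell stage, 25.6 in the morula and 30.7 in the blastocyst. The 8-16 cell library was lower than all others, 6.12-fold below the 2-4 cell library (95% exact interval 4.39 to 8.70). The morula and blastocyst levels overlapped each other and lay below the first 2.

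MAEL (maelstrom), a nuage protein needed for transposon silencing in mouse germ cells, fell in both species. In cow (chromosome 3, 1881239 to 1937675) it stood at 139.8 RPM in the oocyte, 111 at the 2-4 cell stage, 35.2 at the 8-16 cell stage, 24.1 in the morula and 13.9 in the blastocyst. Each cow level lay below the one before it without overlap of intervals. The cow blastocyst was 10.06-fold below the oocyte (95% exact interval 8.58 to 11.8), a change of -3.24. In pig (chromosome 4, 83990273 to 84040465) it stood at 48.6 RPM in the oocyte, 37.7 at the 2-4 cell stage, 14.5 at the 8-16 cell stage, 1.33 in the morula and 1.34 in the blastocyst. The last 2 pig levels rest on 4 and 5 reads. From the pig oocyte to the blastocyst the fall was 36.2-fold (15.2 to 113), a change of -4.40.

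ASZ1 (GASZ), which sits on the mitochondrial surface and holds the processing machinery there, ended below its oocyte level in cow and above it in pig. In cow (chromosome 4, 51294535 to 51370344) it stood at 76.3 RPM in the oocyte, 57.00 at the 2-4 cell stage, 15.1 at the 8-16 cell stage, 57.96 in the morula and 19.2 in the blastocyst. The cow values went down, up and down again, with the 8-16 cell and blastocyst levels overlapping at the bottom. In pig (chromosome 18, 28859205 to 28910632) it stood at 13.9 RPM in the oocyte, 5.07 at the 2-4 cell stage, 9.48 at the 8-16 cell stage, 94.6 in the morula and 50.9 in the blastocyst. The pig morula was 9.98-fold above the 8-16 cell library (95% exact interval 6.84 to 15.1), a called rise of 3.19. From oocyte to blastocyst the level changed by -1.93 in cow (3.96-fold lower, 3.38 to 4.65) and by 1.80 in pig (3.66-fold higher, 2.65 to 5.15). Neither value reached the threshold of 2.

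MOV10L1, the helicase that unwinds piRNA precursors at the start of processing, was highest in the 2-4 cell library in cow and in the 8-16 cell library in pig, where the intervals of neighbouring levels overlapped. In cow (chromosome 5, 121099143 to 121164873) it stood at 25.4 RPM in the oocyte, 36.3 at the 2-4 cell stage, 20.2 at the 8-16 cell stage, 10.002 in the morula and 2.82 in the blastocyst. The cow blastocyst was the low point, 8.99-fold below the oocyte (95% exact interval 6.25 to 13.2), a change of -2.79. In pig (chromosome 5, 510307 to 565316) it had 3 reads in the oocyte, then 2.66, 9.48 and 6.99 RPM, and 0 reads in the blastocyst. Between 2-4 and 8-16 cells pig MOV10L1 was 3.56-fold higher (1.74 to 7.88), a difference of 1.52 under the threshold. The called fall from the pig morula was at least 6.47-fold (lower limit of the 95% exact interval), a change of -2.69.

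At the last step, from morula to blastocyst, PIWIL1 and PIWIL3 were called lower in both species. In cow these calls rest on 13 and 18 morula reads against 0 and depend on the setting. The other called steps are given in order. From the oocyte to the 2-4 cell stage no member was called changed in either species, beside 0.374% of all compared genes in cow (0.196% higher, 0.178% lower) and 5.43% in pig (3.26% higher, 2.17% lower). Between 2-4 and 8-16 cells 2 of 9 compared cow members were called, TDRD1 (-2.35) and TDRD9 (-2.47), both lower. The background was 27.2% of all genes (12.6% higher, 14.6% lower). The call of TDRD1 was lost with quantile normalisation. In pig none was called at that step, beside 4.87% (4.33% higher, 0.543% lower). From the 8-16 cell stage to the morula no cow member was called, beside 11.8% of all genes (6.67% higher, 5.15% lower). In pig 5 of 8 were called at that step, PIWIL1 (-2.90), PIWIL3 (-2.79), TDRD1 (-3.18) and MAEL (-2.74) lower and ASZ1 higher, beside 23.3% (12.0% higher, 11.3% lower). From the morula to the blastocyst 3 of 9 cow members were called, PIWIL1 (-2.03) and PIWIL3 (-2.40) lower and TDRD1 higher, beside 23.4% (11.9% higher, 11.5% lower). With a pseudocount of 2 RPM 0 were called, and with a minimum of 5 RPM TDRD1 alone. With median scaling or quantile normalisation 2 cow members were called there, TDRD1 higher and PIWIL3 lower, and the call of PIWIL1 was lost. In pig 4 of 8 fell at that last step, PIWIL1 (-2.75), PIWIL3 (-2.62), DDX4 (-3.19) and MOV10L1, beside 27.6% (13.8% in each direction). The cow shares of 2 of 9 between 2-4 and 8-16 cells and 3 of 9 at the last step are near the background. So are the steps with none called, beside a background of 0.374% to 11.8%. Differences between the species were not tested.

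**Figure D3:**
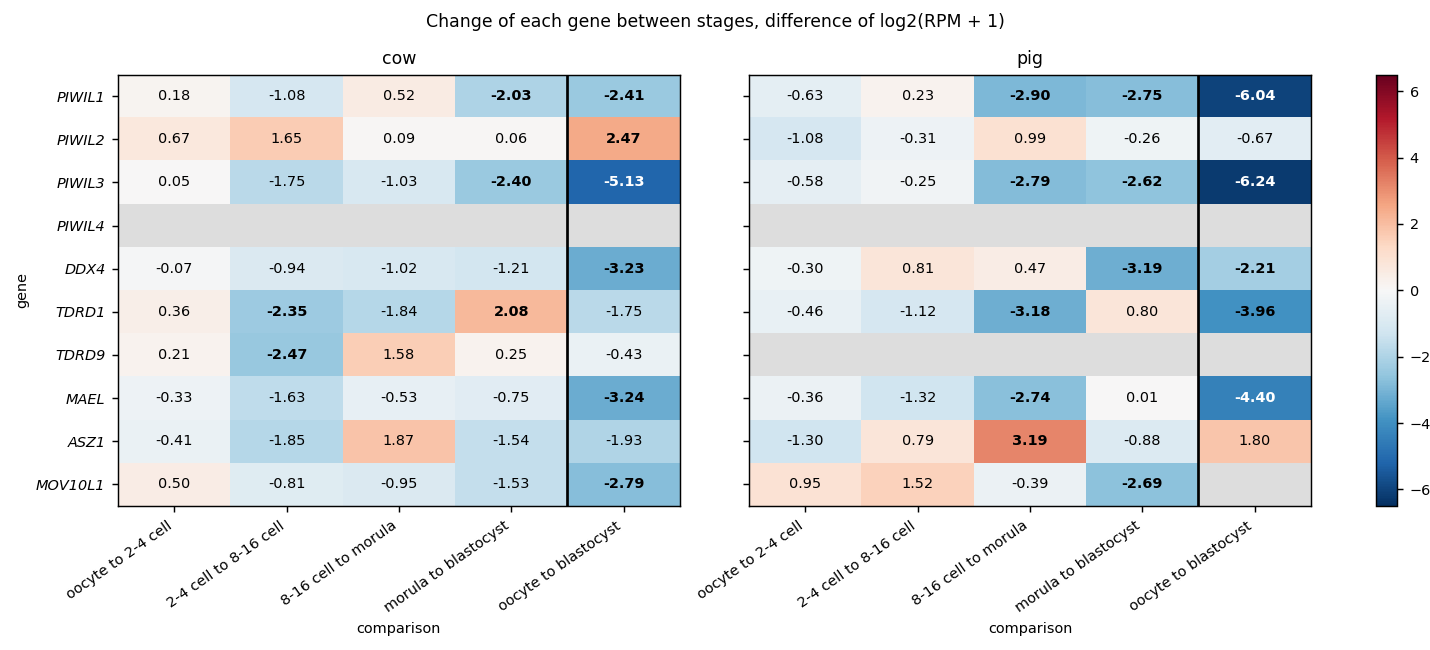
Change of each gene at the 4 consecutive steps and from oocyte to blastocyst (right of the black line), in cow and pig. Colour and printed value give the later minus the earlier stage on the log2(RPM + 1) scale, bold values reach a difference of 2, and grey cells were not compared. Bold values in cow are spread over 2 steps, and those in pig stand at the last 2 steps.

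As a share of the oocyte level, the 9 cow members compared stood at the 8-16 cell stage at 18.9% for TDRD9, 19.8% for ASZ1, 24.3% for TDRD1, 25.2% for MAEL, 28.9% for PIWIL3, 43.4% for PIWIL1, 48.6% for DDX4, 79.9% for MOV10L1 and 536% for PIWIL2. The 8 pig members compared at that step, less MOV10L1 with 3 oocyte reads, stood at 29.9% for MAEL, 30.5% for PIWIL2, 33.1% for TDRD1, 56.2% for PIWIL3, 68.1% for ASZ1, 75.8% for PIWIL1 and 144% for DDX4. Cow PIWIL2 and pig DDX4 were thus above their oocyte level at this stage, and the others listed were below it. Intervals overlapped those of the oocyte for pig DDX4 and ASZ1 and for cow PIWIL1 and MOV10L1. Pig MOV10L1, left out of these shares, went from 0.888 RPM (0.302 to 2.61) to 9.48 RPM (6.64 to 13.5), without overlap.

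Other scalings moved the median change of all compared genes by between -0.31 and 0.38. From oocyte to blastocyst no compared member changed direction under them. At single steps the direction flipped under at least 1 scaling for cow PIWIL1, PIWIL3 and TDRD9 between oocyte and 2-4 cells, for cow PIWIL2 between 8-16 cells and morula, for pig PIWIL1 between 2-4 and 8-16 cells and for MAEL from the pig morula to the blastocyst. None of these was a called change.

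Genes with a similar course were named by the smallest Euclidean distance between centred log2(RPM + 1) profiles over the 5 stages, for the 2 members with the highest RPM value in each species, a choice not corrected for gene length that ranks no gene against another, among 10442 cow and 9530 pig genes with a symbol and at least 5 RPM in 1 library. For cow MAEL these were DCK (distance 0.103), C5 (0.175) and ZNF330 (0.219). DCK, for example, went from 202 to 21.3 RPM from oocyte to blastocyst. For cow TDRD1 they were MGST2 (0.121), GABRA3 (0.239) and ZMYM5 (0.288), each with its low point in the morula. For pig TDRD1 they were TOP2B (0.531), MAEL (0.586) and CMAS (0.599), so another gene of the pathway was among its 3 nearest. For pig PIWIL3 the nearest was SGSM1 (0.0966), which shares its reads, then SDC2 (0.186) and PDZK1 (0.296). The log2(RPM + 1) scale understates changes of low values. This bears on C5 (9.53 to 0.141 RPM from cow oocyte to blastocyst) and SDC2 (96.8 to 0 RPM in pig). These distances rest on 5 libraries and describe those libraries only.

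The other genes of the pathway were taken from a list of 28 symbols, of which 26 were found in cow and 24 in pig. From oocyte to blastocyst 12 of 22 compared cow genes and 10 of 19 compared pig genes were called lower, and 0 were called higher in either species. Of all compared genes 18.4% were lower and 21.8% higher in cow, and 19.2% and 26.0% in pig. Their median change was -2.27 in cow and -2.96 in pig. In the biogenesis and nuage group 9 of 12 compared genes were lower in cow and 7 of 11 in pig. Of the partners and effectors, which include general proteins such as the demethylase KDM1A and the helicase DDX39B, 2 of 8 were lower in cow and 1 of 6 in pig, shares near those of all genes. In the group of transcriptional regulators (MYBL1, TCFL5 and BTBD18) 1 of 2 compared was lower in cow and 2 of 2 in pig.

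The 4 genes of the list with the largest change in cow were TDRD5, MORC1, PNLDC1 and TDRD7. TDRD5, a Tudor protein of the nuage, went from 176 RPM in the cow oocyte to 1.97 in the blastocyst, 88.97-fold lower. MORC1, a germ cell ATPase of transposon silencing, went from 60.6 RPM to 0 reads, at least 232-fold lower. PNLDC1, the enzyme that trims the 3′ end of piRNAs, went from 53.6 to 0.705 RPM, and TDRD7, a Tudor protein of germ granules, from 333 to 13.7 RPM.

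In pig the 4 largest on the log2(RPM + 1) scale were TDRD7, TDRD6, RNF17 and TDRD5, all Tudor-domain genes. The ranking depends on that scale. By point estimate FKBP6 (173-fold) and EXD1 (150-fold), each with 1 blastocyst read, fell further than TDRD6 (97.2-fold), RNF17 (83.6-fold) and TDRD5 (52.9-fold). TDRD7 went from 127 RPM in the pig oocyte to 0 reads in the blastocyst, at least 158-fold lower. TDRD6 went from 156 to 1.61 RPM, RNF17 from 179 to 2.14 RPM and TDRD5 from 156 to 2.95 RPM. RNF17 had another course in cow, with 76.5 RPM in the oocyte, 215 in the morula and 18.0 in the blastocyst. HENMT1, the methyltransferase that modifies the 3′ end of piRNAs, and cow RNF17 were picked here after their values were seen. It went from 15.4 RPM in the cow oocyte through 71.2 at the 8-16 cell stage to 1.62 in the blastocyst, a called fall of -2.65. In pig it went from 60.99 RPM through 345 in the morula to 232 in the blastocyst, a difference of 1.91 under the threshold.

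Genes of the microRNA and short interfering RNA routes, which use Argonaute proteins of the AGO branch and the nuclease DICER1, were counted the same way. Of 10 compared cow genes 1 was called lower and 0 higher, with a median of -0.61, beside 18.4% lower and 21.8% higher among all genes. Of 8 compared pig genes 1 was called lower and 1 higher, with a median of 0.12, beside 19.2% and 26.0%. DICER1 was the cow gene called lower, from 314 to 52.95 RPM, while AGO1 (7.30 to 28.0 RPM), AGO4 (1.22 to 6.49 RPM) and DROSHA (179 to 52.3 RPM) did not reach the threshold. Scaled to non-mitochondrial gene reads, AGO1 (2.24) and AGO4 (2.29) did reach it, as did AGO4 (2.02) with a pseudocount of 0.5 RPM, so the 0 higher in cow depends on these settings. In pig PRKRA was called lower, from 5.33 RPM to 0 reads, and TARBP2 higher, from 1 read to 4.56 RPM. The call of PRKRA was lost with a pseudocount of 2 RPM (-1.71), and that of TARBP2 with a pseudocount of 2 RPM (1.51), median scaling (1.97) and quantile normalisation (1.43). AGO2 (73.1 to 21.98 RPM) and XPO5 (53.0 to 172 RPM) of pig were not called. The span of pig XPO5 shares 1747 bases with POLR1C (4 to 194 reads) and 1022 with POLH (44 to 21 reads). How many of the XPO5 reads come from these genes was not tested. The difference between these lists and the PIWI pathway was not tested.

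**Figure D4:**
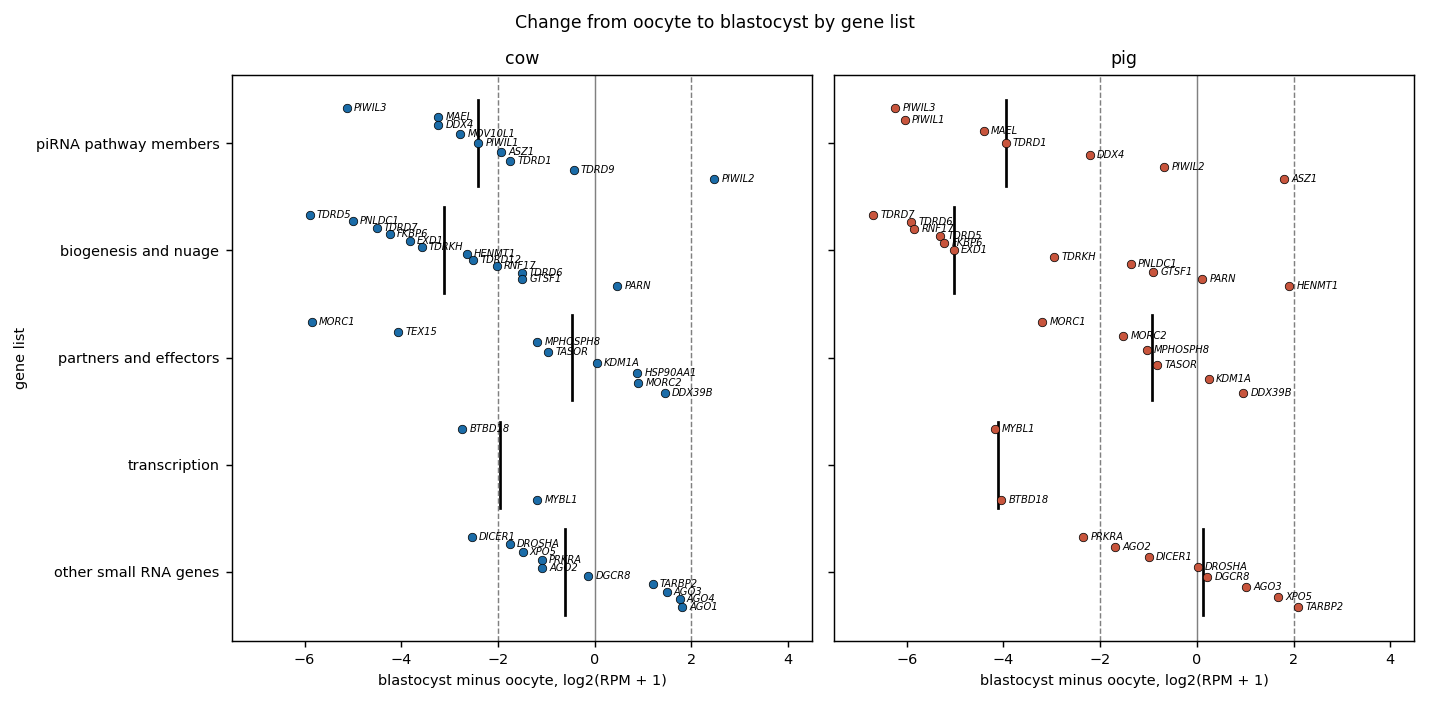
Change from oocyte to blastocyst for the 10 genes and for 4 other lists, in cow and pig. Each point is 1 compared gene, the horizontal axis is the blastocyst minus the oocyte on the log2(RPM + 1) scale, dashed lines mark -2 and 2, and the black bar is the median of the list. Medians of the 10 genes lie at -2.41 in cow and -3.96 in pig, and those of the other small RNA genes at -0.61 and 0.12.

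MOV10, the paralog of MOV10L1 in cells outside the germ line, was also picked after its values were seen. The called rise of MOV10 was from 2.84 to 222 RPM for the cow (78.3-fold, 95% exact interval 46.6 to 143) and from 14.2 to 146 RPM for the pig (10.3-fold, 7.65 to 14.1). In pig its span shares 2144 bases with RHOC, whose reads went from 27 to 518. How many of the pig reads come from RHOC was not tested.

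Read totals ranged from 3002751 to 14182046 per library, and mitochondrial genes took between 2.74% and 30.2% of the reads, the highest share being that of the cow blastocyst. Stage labels were checked against marker lists. The summed level of 12 oocyte markers went from 5629 RPM in the cow oocyte to 0.282 RPM in the blastocyst, where 11 of 12 were at 0 reads, and that of 10 pig markers from 5319 to 22.5 RPM, with 6 of 10 at 0. Trophectoderm markers (7 found in each species) summed to 3306 RPM in the cow and 8252 RPM in the pig blastocyst, and to between 52.7 and 117 RPM in the other cow libraries and 7.11 and 57.3 RPM in the other pig libraries. Cumulus and granulosa cell markers, for somatic cells around the oocyte, summed to between 40.5 and 222 RPM over 12 cow genes and between 19.0 and 65.7 RPM over 9 pig genes, with 4 cow genes (among them LHCGR, CYP11A1 and AMH) and 3 pig genes at 0 reads in the oocyte library. Of the others, STAR (157 RPM) and FSHR (37.3 RPM) made up most of the sum in the cow oocyte, where 6 of 12 were above the floor, and STAR (43.2 RPM) and FSHR (11.3 RPM) in the pig oocyte. Male germ cell markers were at 0 reads for 6 of 6 genes in the pig oocyte and for 4 of 6 in the cow oocyte. Inner cell mass and primitive endoderm markers summed to 15.01 RPM in the cow oocyte and 544 RPM in the blastocyst, and to 34.6 and 282 RPM in pig, with 331 RPM in the pig morula. In the pig blastocyst GATA6 gave 261 RPM of that sum, while NANOG, SOX2 and SOX17 had 0 reads and GATA4 stood at 4.02 RPM against 33.5 RPM in the oocyte. The oocyte markers thus moved in the direction of the members called lower, and the part that other cells had in the members' levels was not tested.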

How the data were processed

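The authors deposited 1 table per species with 1 log2 value per gene and library. Per the submitters' processing notes, Trim Galore 0.6.4 and HISAT2 2.1.0 were used, with the builds UMD3.1 and Sscrofa11.1; the counting tool and annotation are not given in the sources used here. Per the labels' protocols, RNA from very small inputs was amplified as cDNA and passed 8 PCR cycles, so that several reads can stem from 1 molecule, and intervals and floors cover counting error alone. The scale was read from the values: in each column the second lowest value is 1 read, between 99.98% and 100% of higher values lie within 0.05 of a whole number of reads, and 0 reads are written as 0.9 of a read. The values were thus taken as log2 RPM. The spacing gives reads times a constant per library, so the per-million factor and the read totals rest on that reading. Reads were recovered from them for 95% Wilson intervals, exact conditional intervals of folds, and the floor of 3 reads that a count of 0 allows. Changes used the deposited values with a pseudocount of 1 RPM. The count and call steps were tested on simulated data. Python 3.11.15, pandas 2.3.3 and scipy 1.17.1 were used.

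The members and lists were chosen with earlier results of these data known. Genes were named by rule: all members, the 4 genes with the largest change of each of the piRNA and other small RNA lists, and the 3 nearest profiles of the 2 members with the highest RPM per species. HENMT1, MOV10, FKBP6, EXD1, cow TEX15 and cow RNF17 fall outside it and were chosen after their values were seen. Older symbols came from the RefSeq table of ARS-UCD2.0 (TASOR as FAM208A) or the AGO names. That table's coordinates were not used, and no sequence of these genes was used here. The alternatives tried were 2 other pseudocounts, 2 other minimum levels, a threshold of 1, and 3 other scalings.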

Additional observations from a re-analysis of the deposited data

Results flagged for a closer look

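Members that moved in opposite directions in cow and pig over the same step, with the counting interval of the fold away from 1 in both, were singled out; with 1 library per stage the difference between the species was not tested. From oocyte to blastocyst this was ASZ1, at -1.93 in cow and 1.80 in pig. From the oocyte to the 2-4 cell stage it was PIWIL2 (0.67 in cow, -1.08 in pig) and TDRD1 (0.36 in cow, -0.46 in pig). From the 2-4 cell to the 8-16 cell stage it was DDX4 (-0.94 in cow, 0.81 in pig), ASZ1 (-1.85 in cow, 0.79 in pig) and MOV10L1 (-0.81 in cow, 1.52 in pig). From the 8-16 cell stage to the morula it was DDX4 (-1.02 in cow, 0.47 in pig). None of these values reached the threshold of 2. The intervals cover counting error only, and lower limits of the fold came near 1 for cow PIWIL2 (1.16) and TDRD1 (1.13). The same held for pig ASZ1 between 2-4 and 8-16 cells (1.03) and pig DDX4 at the morula step (1.06). Median scaling moved the median of all genes by -0.28 at that cow step and by -0.24 and -0.18 at those pig steps. No listed change reversed direction under other scalings, but whether the intervals stayed away from 1 was not tested.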

How the results depend on the processing

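Counts of called members from oocyte to blastocyst stayed within 1.5 times under 8 other settings and 1 chosen after seeing the data (0 reads set to 0 RPM), with the exception of the higher pig members, 1 instead of 0 (ASZ1) at a threshold of 1. That threshold also gave 7 instead of 2 for cow between 2-4 and 8-16 cells, 5 instead of 0 for the cow step to the morula, 6 instead of 3 for the cow step to the blastocyst, 2 instead of 0 for the pig step from the oocyte and 3 instead of 0 for the pig step to the 8-16 cell stage. Quantile normalisation gave 1 (TDRD9) instead of 2 for cow between 2-4 and 8-16 cells. For the cow step to the blastocyst a pseudocount of 2 RPM gave 0 and a minimum of 5 RPM gave 1. Of 108 such counts 99 stayed within 1.5 times. Among 35 single gene changes from oocyte to blastocyst under 6 settings, 0 of 210 values changed sign and 21 left their counting interval. No paired analysis was possible because each group has 1 library. Leaving out a replicate was not possible for the same reason. Depth limits PIWIL4 in all libraries and the pig values of PIWIL2, MOV10L1 and late MAEL.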
